A study of Rattus norvegicus with 15 samples.

Results

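The genes described are 9 transcripts that handle, carry or withhold iron, out of 22250 genes in the table: Lcn2, Hp, Slc40a1, Tfrc, Tf, Slc11a1, Fth1, Cp and Hamp. The list names them for what their proteins do, and no measured value enters the rule, although earlier results of these data were known when it was made. Rat lung RNA was sequenced in 15 libraries, 5 in each of 3 groups, all with the genotype label WT. The control group was labelled as normal. The ALI group received LPS (lipopolysaccharide, a component of the outer membrane of Gram-negative bacteria) through the trachea, a common way to produce acute lung injury. The SJY group received LPS in the same way and also Sang Ju Yin, a Chinese herbal formula, into the stomach. Strain, sex, age, dose and time after LPS are not given in the sources used here, no group given LPS with a vehicle in place of the formula is named, and no sham instillation is named for the control group. Whether each library comes from a separate animal is not stated, so the p-values measure the spread between these libraries, which may be in part technical.

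Iron is needed by the host and by invading bacteria, and withholding it is part of innate defence, known as nutritional immunity. Lipocalin 2 (Lcn2) binds bacterial siderophores, haptoglobin (Hp) captures free haemoglobin, transferrin (Tf) carries ferric iron to the transferrin receptor (Tfrc), and Slc11a1 (NRAMP1) pumps metal ions out of the phagosome of macrophages and neutrophils. Ceruloplasmin (Cp) oxidises ferrous iron so that it can be loaded on transferrin, ferritin heavy chain (Fth1) stores iron, ferroportin (Slc40a1) exports it, and hepcidin (Hamp) is the peptide hormone that removes ferroportin from the cell surface. Lcn2, Hp, Cp and Hamp are known as acute phase genes of the liver, and the first 3 are also known to be made in lung.

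The 250 bases before the start of the gene are shown for 4 of the 6 members with a RefSeq promoter, those that have values above 0 in the table and also hold motifs of factors known to act in the acute phase response. The sequences are from RefSeq on the build GRCr8, which is not the build of the expression values, and run 5′ to 3′ on the strand of the gene. Capitals mark matches, on either strand, to NF-kB (GGGA, any 4 bases, then CC), C/EBP (TTNNGNAA) or STAT (TTCNNNGAA). The Lcn2 sequence lies at chr3:36081781-36082030 on the minus strand, the Cp sequence at chr2:104368420-104368669 on the plus strand, the Tf sequence at chr8:112695377-112695626 on the minus strand and the Hamp sequence at chr1:95300272-95300521 on the minus strand.
Lcn2: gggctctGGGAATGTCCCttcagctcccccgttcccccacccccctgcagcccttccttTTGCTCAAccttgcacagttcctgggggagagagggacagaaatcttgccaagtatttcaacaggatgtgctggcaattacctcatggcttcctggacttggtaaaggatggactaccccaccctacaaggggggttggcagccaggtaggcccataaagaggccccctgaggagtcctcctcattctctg
Cp: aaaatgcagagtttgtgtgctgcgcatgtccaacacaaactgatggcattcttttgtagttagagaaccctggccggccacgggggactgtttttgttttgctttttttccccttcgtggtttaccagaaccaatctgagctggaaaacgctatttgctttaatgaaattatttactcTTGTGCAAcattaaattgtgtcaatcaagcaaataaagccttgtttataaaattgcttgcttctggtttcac
Tf: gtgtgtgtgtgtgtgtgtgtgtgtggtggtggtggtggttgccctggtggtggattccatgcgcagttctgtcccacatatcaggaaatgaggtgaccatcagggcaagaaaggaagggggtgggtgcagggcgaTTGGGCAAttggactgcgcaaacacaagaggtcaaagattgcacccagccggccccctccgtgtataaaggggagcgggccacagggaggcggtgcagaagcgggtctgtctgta
Hamp: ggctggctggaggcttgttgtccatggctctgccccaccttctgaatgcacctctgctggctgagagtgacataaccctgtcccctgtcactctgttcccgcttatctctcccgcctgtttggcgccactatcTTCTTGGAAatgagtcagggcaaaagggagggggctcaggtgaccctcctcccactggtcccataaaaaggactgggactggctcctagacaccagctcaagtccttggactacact

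In the Lcn2 promoter the NF-kB letters stood at 243 to 234 bases before the start on the gene's strand and at 242 to 233 on the opposite strand, so that both matches share most of their bases. A C/EBP match lay at 191 to 184 bases before the Lcn2 start, on the opposite strand. The Cp promoter held 1 C/EBP match, at 72 to 65 bases before the start, and the Tf promoter held 1, at 115 to 108. The Hamp promoter held the STAT letters at 117 to 109 bases, which read as a match on both strands. Of the other members with a sequence, Slc40a1 held an NF-kB match at 93 to 84 bases on the opposite strand and Tfrc held none of these motifs. These letters are common: NF-kB was found in 16.4% of 33469 rat promoters of the same length, C/EBP in 37.2% and STAT in 7.67%. The antioxidant response element (TGACNNNGC), found in 10.1% of all promoters, was in 0 of the 6. A match is a description of the letters and says nothing of binding in these lungs.

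Values are FPKM, fragments scaled to the length of the transcript and to the mapped fragments of the library, so that levels of different genes can be set side by side per length. Differences and their standard errors (SE) are on the scale log2(FPKM + 1), and a call means that limma's p, adjusted by Benjamini-Hochberg, was under 0.05. limma was fitted on the 13457 genes with at least 1 FPKM in at least 5 libraries. Of the 9 members, 6 passed this filter, each with at least 1 FPKM in all 15 libraries, so that none passed only through the group where it was high. Hamp did not pass, and Fth1 and Slc40a1 were listed at 0 in every library.

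The libraries had a summed FPKM of 495244 to 700068 and 11865 to 13313 genes at 1 FPKM or more. The library ALI 1 stood apart, with 37.7% of its summed FPKM in 13 mitochondrial genes, while the control libraries had 5.19 to 9.62% and the SJY libraries 10.4 to 17.1%. Markers of neutrophils, summed over 13 genes, ranged from 92.7 to 141 FPKM in control, from 1337 to 15759 in ALI and from 6904 to 11868 in SJY. The lung label was checked with 8 markers of alveolar type II cells, whose sum was 6106 FPKM or more in every library. In whole tissue, fewer cells of a type and less RNA per cell cannot be told apart.

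In the lungs given LPS alone, 5 of the 6 tested iron genes were higher than in control and none was lower. The genes were Lcn2, Hp, Tf, Cp and Slc11a1, with fold changes of the group means from 2.28 for Slc11a1 to 22.4 for Lcn2, while Tfrc was not called. Over all genes tested, 8.02% were called higher, 9.56% lower and 17.6% in either direction. The median difference of the 6 members was 1.80, against -0.12 over all genes tested. In 4 of the 6, every ALI library lay above every control library, which held in this direction for 6.17% of all genes tested, and none lay below in the same way (6.73% of all genes).

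**Figure D1:**
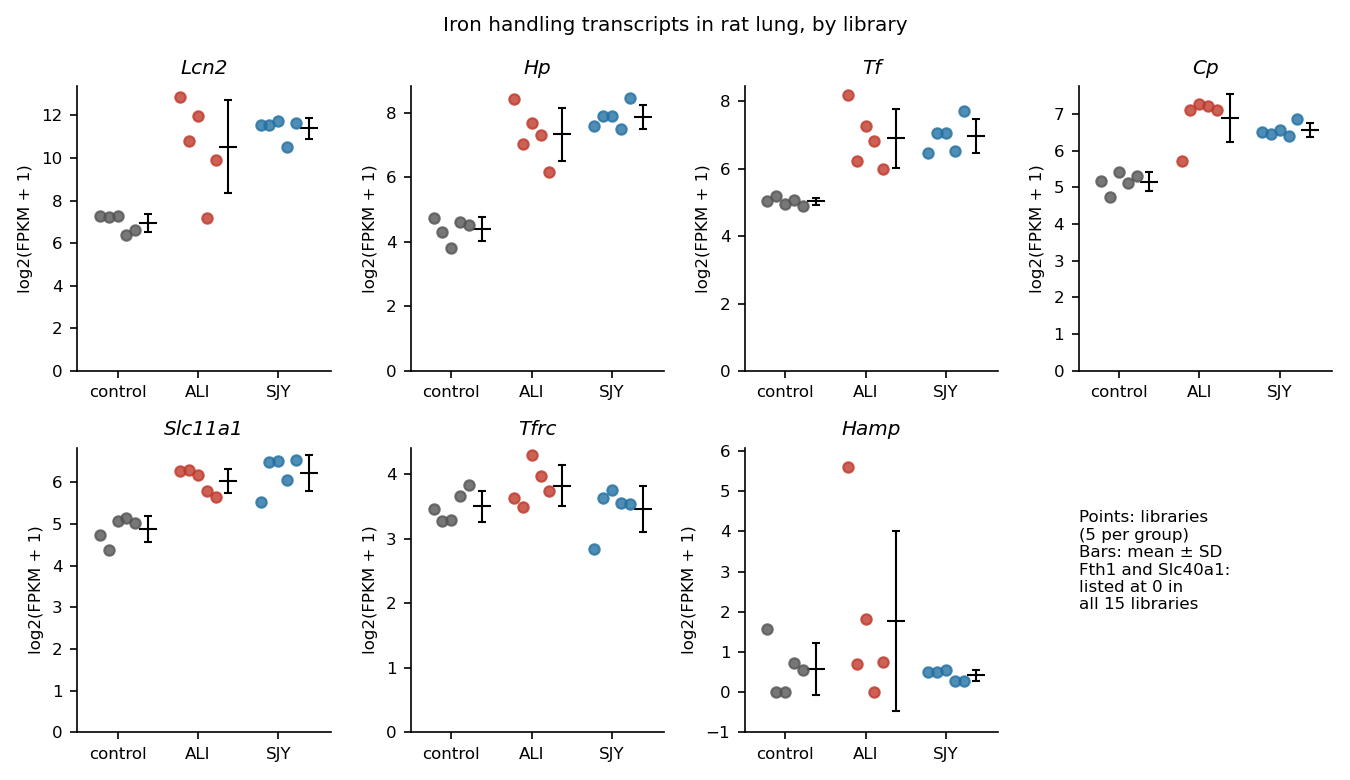
Level of 7 iron genes in each library as log2(FPKM + 1), with 1 point per library, 5 per group, and a bar for the mean ± SD on that scale. Hp, Tf, Cp and Slc11a1 separate both LPS groups from control without overlap, Lcn2 has 1 ALI library at the control level, Tfrc overlaps in all groups, and Hamp is high in ALI 1 alone.

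Lcn2 (ENSRNOG00000013973), which starves bacteria of siderophore-bound iron and is stored in neutrophil granules as well as made by epithelium, was the most abundant of the members in every group by its mean. In control libraries 4, 5, 6, 7 and 8 it was at 154, 149, 154, 83.5 and 97.6 FPKM. In ALI libraries 1 to 5 it was at 7435, 1748, 4014, 142 and 963 FPKM, and in SJY libraries 1, 3, 4, 5 and 6 at 2981, 3016, 3437, 1480.4 and 3189 FPKM. The ALI libraries thus spread over more than the whole distance between control and SJY, ALI 4 lay inside the control range, and all SJY libraries lay above control. The control mean was 128 ± 34.2 FPKM, the ALI mean 2861 ± 2936 and the SJY mean 2821 ± 771 (SD, n = 5 for each group). The difference between ALI and control was 3.57 (SE 0.76) with a limma adjusted p of 0.0058. Without ALI 4 it was 4.42, and without ALI 1 it was 2.99. Among all genes of a library, Lcn2 ranked between 382 and 835 in control, between 9 and 489 in ALI and between 16 and 25 in SJY, and in ALI 1 it made up 1.06% of the summed FPKM.

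Hp (ENSRNOG00000014964), whose protein binds haemoglobin released from damaged red cells, was at 25.8, 18.8, 13.0, 23.6 and 21.7 FPKM in the control libraries. The ALI libraries had 341, 129.7, 203, 159 and 70.8 FPKM, and the SJY libraries 191, 237, 235, 179.8 and 349 FPKM. No library given LPS reached down to the control range, and ALI 5 was the lowest of them. The mean was 20.6 ± 4.94 FPKM in control and 181 ± 102 in ALI (SD, n = 5 each), a difference of 2.92 (SE 0.32) with a limma adjusted p of 3e-05. Summed markers of red cells and their precursors ranged from 367 to 6610 FPKM in control, from 2095 to 7213 in ALI and from 3520 to 10256 in SJY. Of 5 tested markers, 0 were called in ALI against control, against 17.6% of all genes. In SJY against control 3 of the markers were called higher, against 14.6% of all genes. The part of red cell markers in the Hp values was not tested.

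Tf (ENSRNOG00000030625), the iron carrier of plasma, was nearly constant in control, at 32.3, 35.3, 30.3, 32.6 and 28.8 FPKM. It was at 292, 74.8, 154, 113 and 63.2 FPKM in the ALI libraries and at 88.2, 133, 134, 92.0 and 209 FPKM in the SJY libraries. All LPS libraries lay above all controls, with ALI 1 the highest and ALI 5 the lowest, as for Hp within the ALI group. The ALI mean was 139 ± 92.6 FPKM against 31.9 ± 2.49 in control (SD, n = 5 each), a difference of 1.88 (SE 0.33, limma adjusted p 0.00153). In the human liver, transferrin is known as a negative acute phase protein, and the liver of these rats was not measured here.

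Cp (ENSRNOG00000011913), a copper-containing ferroxidase, was at 34.8, 25.6, 41.8, 33.9 and 38.8 FPKM in control. The ALI libraries had 51.8, 137, 153, 148 and 136 FPKM, and the SJY libraries 90.3, 86.7, 94.1, 82.6 and 115 FPKM. The groups given LPS did not overlap with control, and ALI 1, which had the most Lcn2 and Tf of all libraries, had the least Cp of the ALI group. The mean was 35.0 ± 6.14 FPKM in control and 125 ± 41.6 in ALI (SD, n = 5 each), a difference of 1.73 (SE 0.24, limma adjusted p 0.000232).

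Slc11a1 (ENSRNOG00000014956), the phagosomal metal transporter, was at 25.7, 19.8, 32.6, 34.2 and 31.5 FPKM in control. It was at 76.0, 77.1, 71.2, 54.3 and 49.2 FPKM in ALI and at 45.2, 87.8, 89.5, 65.9 and 91.7 FPKM in SJY. Every LPS library was above every control. The mean was 28.8 ± 5.94 FPKM in control and 65.6 ± 12.9 in ALI (SD, n = 5 each), a difference of 1.16 (SE 0.21, limma adjusted p 0.00154). It was the smallest difference of the 5 called members.

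Tfrc (ENSRNOG00000001766), the receptor through which most cells take up transferrin-bound iron, was at 9.98, 8.67, 8.82, 11.6 and 13.2 FPKM in control. It was at 11.4, 10.2, 18.6, 14.7 and 12.3 FPKM in ALI and at 6.14, 11.4, 12.4, 10.7 and 10.6 FPKM in SJY. The 3 groups overlapped. The difference between ALI and control was 0.32 (SE 0.19, 95% interval -0.084 to 0.72, limma adjusted p 0.237). The ratio of Tf to Tfrc, the carrier over its receptor, was 2.18 to 4.08 in control, 5.16 to 25.6 in ALI and 8.58 to 19.6 in SJY, with no overlap between control and either LPS group.

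Hamp (ENSRNOG00000021029), the hormone that blocks iron export, was close to the limit of the table except in 1 library. The control libraries had 1.96, 0, 0, 0.657 and 0.455 FPKM, the ALI libraries 47.5, 0.636, 2.52, 0 and 0.689 FPKM, and the SJY libraries 0.427, 0.406, 0.46, 0.205 and 0.206 FPKM. ALI 1 thus held nearly all of the Hamp signal of the series, and the other ALI libraries overlapped with control. The difference in mean log2(FPKM + 1) between ALI and control was 1.21 with all libraries and 0.25 without ALI 1. A two-sided exact permutation test over the libraries gave p = 0.278, where the smallest p that 5 against 5 can give is 0.00794.

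Fth1 (ENSRNOG00000022619) and Slc40a1 (ENSRNOG00000049995) were listed at 0 in all 15 libraries, as were 3705 of the 22250 genes. Ferritin heavy chain is used by every cell, and ferroportin is known in macrophages, so these zeros are not read as absence. Other genes that every cell or every lung uses were also at or near 0. The ferritin light chain gene Ftl1 had a mean of 2.87 FPKM over the 15 libraries, the ribosomal protein genes Rplp2 and Fau had means of 0.044 and 0.0915 FPKM, and the endothelial gene Cldn5 was at 0 throughout. Rplp2 and Fau were chosen after their values were seen. No statement on iron storage or export through these members can be made from the table.

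**Figure D2:**
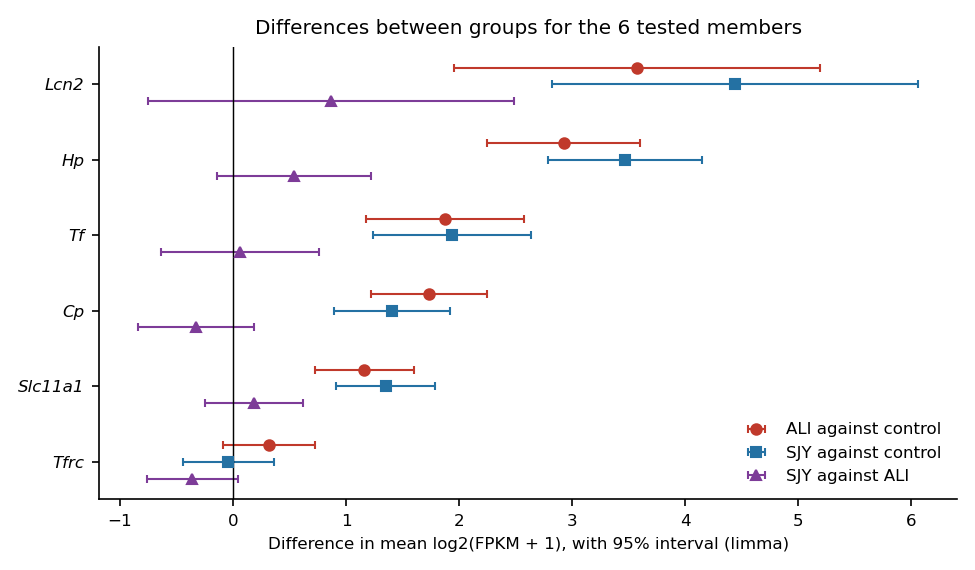
Difference in mean log2(FPKM + 1) between groups for the 6 tested members, with limma's 95% interval. Against control, the intervals of Lcn2, Hp, Tf, Cp and Slc11a1 lie above 0 for both ALI and SJY, while all 6 intervals for SJY against ALI include 0.

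The second comparison asks whether iron genes differ between lungs given LPS with Sang Ju Yin and lungs given LPS alone. None of the 6 tested members was called in either direction by limma, and none had an unadjusted p under 0.05. Over all genes, 1 was called, which is 0.00743% of those tested, and 1587 had an unadjusted p under 0.05. In none of the 6 did the groups separate without overlap, which occurred upwards for 2.24% and downwards for 0.988% of all genes. The median difference of the 6 members was 0.12, against 0.029 over all genes. The intervals do not exclude sizeable differences. For Lcn2 the difference was 0.87 with a 95% interval from -0.75 to 2.49 (limma adjusted p 0.702), and for Hp it was 0.54 with an interval from -0.14 to 1.22 (adjusted p 0.535). The Lcn2 difference was 0.025 without ALI 4 and 1.45 without ALI 1, and that of Hp was 0.25 without ALI 5 and 0.81 without ALI 1. Tf differed by 0.062 (interval -0.64 to 0.76) and Slc11a1 by 0.19 (interval -0.25 to 0.62). Cp was lower by value, at -0.32 (interval -0.84 to 0.19), as was Tfrc, at -0.36 (interval -0.76 to 0.044). For Hamp the difference in means was -1.36 with an exact permutation p of 0.198.

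The ALI library with the high mitochondrial share decided 1 of these results. Without ALI 1, Cp was called lower in SJY than in ALI, with a difference of -0.61 and a limma adjusted p of 0.035, and the number of all genes called was 181. The 4 remaining ALI libraries, at 136 to 153 FPKM of Cp, all lay above the 5 SJY libraries, at 82.6 to 115. With ALI 1, at 51.8 FPKM, the groups overlapped. The shares of all genes called or separated in this way without ALI 1 were not computed. Cp was called in SJY against ALI in 1 of 22 alternatives, and the other tested members in 0.

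Against control, the SJY lungs showed the same 5 members higher and none lower, where 14.6% of all genes tested were called higher, 18.1% lower and 32.6% in either direction. Lcn2 differed by 4.44 (95% interval 2.83 to 6.06, limma adjusted p 0.000777), Hp by 3.46 (2.78 to 4.14, adjusted p 2.68e-06) and Tf by 1.94 (1.24 to 2.64, adjusted p 0.000676). Cp differed by 1.41 (0.89 to 1.92, adjusted p 0.000709) and Slc11a1 by 1.35 (0.91 to 1.79, adjusted p 0.000275). In all 5, no SJY library overlapped with a control library, which held in this direction for 11.8% of all genes tested. Tfrc differed by -0.040 (-0.44 to 0.36, adjusted p 0.891). This comparison shares its control libraries with that of ALI against control, so the matching calls are not independent of each other. For each gene, limma used 1 estimate of the spread for all 3 groups, so the intervals given here also carry the spread of the ALI libraries. For Lcn2 the pooled SD of log2(FPKM + 1) was 0.457 for SJY and control, and 1.58 for ALI and control.

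The order of the levels differed between control and the LPS groups. By the group means it was, in control, Lcn2, Cp, Tf, Slc11a1, Hp, Tfrc and Hamp from high to low. The ranges of Cp, Tf and Slc11a1 overlapped with each other, those of Slc11a1 and Hp did too, and Hp and Tfrc overlapped in 1 library each. By their means the order in both ALI and SJY was Lcn2, Hp, Tf, Cp, Slc11a1, Tfrc and Hamp, with Hp above Cp, Tf and Slc11a1 instead of below them. In ALI, each neighbour from Lcn2 to Slc11a1 overlapped with the next, Tfrc lay below Slc11a1, and Hamp overlapped with Tfrc through ALI 1. In SJY, Lcn2 and Tfrc were set apart from the rest, and the neighbours from Hp to Slc11a1 overlapped.

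Lcn2, Hp and Slc11a1 are all known in neutrophils, with Slc11a1 also in macrophages, and some markers of both cell types were called higher in the same groups. S100a8, which codes for a main cytosolic protein of neutrophils, ranged over 5.67 to 24.9 FPKM in the controls, 432 to 5022 in the ALI libraries and 2216 to 4094 in the SJY libraries. Of the neutrophil list, 9 of the 10 tested markers were called higher in ALI than in control, against 8.02% of all genes. Elane, among the 9, had no control library at 1 FPKM and passed the filter through LPS libraries alone, so its call is no support for the count. Mpo, Ngp and Ltf (lactoferrin), also on the list of 13, did not pass the filter and were not higher in ALI by their means. The means in control and ALI were 0.204 and 0.201 FPKM for Mpo, 2.19 and 0.51 for Ngp, and 0.0229 and 0.00599 for Ltf. Of 11 monocyte and macrophage markers, 6 were also called higher in ALI, among them Cd14 (1.78), Cd68 (0.94) and Adgre1 (2.35), and none was called lower. The 5 not called were Lyz2 (-0.44), Csf1r (-0.24), Mrc1 (-0.071), Siglec1 (0.44) and Marco (0.70). In SJY against control, 6 of the 11 were called higher, against 14.6% of all genes. Marco, among these 6, passed the filter through LPS libraries alone. The summed level of the list, 12588 to 18512 FPKM for the controls and 4763 to 18286 for ALI, overlapped. Nearly all of that sum came from Lyz2, with means of 14993 FPKM in control and 12015.5 in ALI. The sum therefore says little of the other markers. The ratio of Lcn2 to S100a8 was 6.01 to 27.1 in control, 1.23 to 4.01 in ALI libraries 1, 2, 3 and 5, and 0.668 to 1.18 in SJY. In ALI 4 it was 0.107: this library had 1330.4 FPKM of S100a8 but only 142 of Lcn2, while its Hp, at 159 FPKM, was the group's median. The ratio of Lcn2 to Hp was 0.894 in ALI 4 and 13.5 to 21.8 in the other ALI libraries. The part of neutrophil or macrophage number in the member values was not tested.

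**Figure D3:**
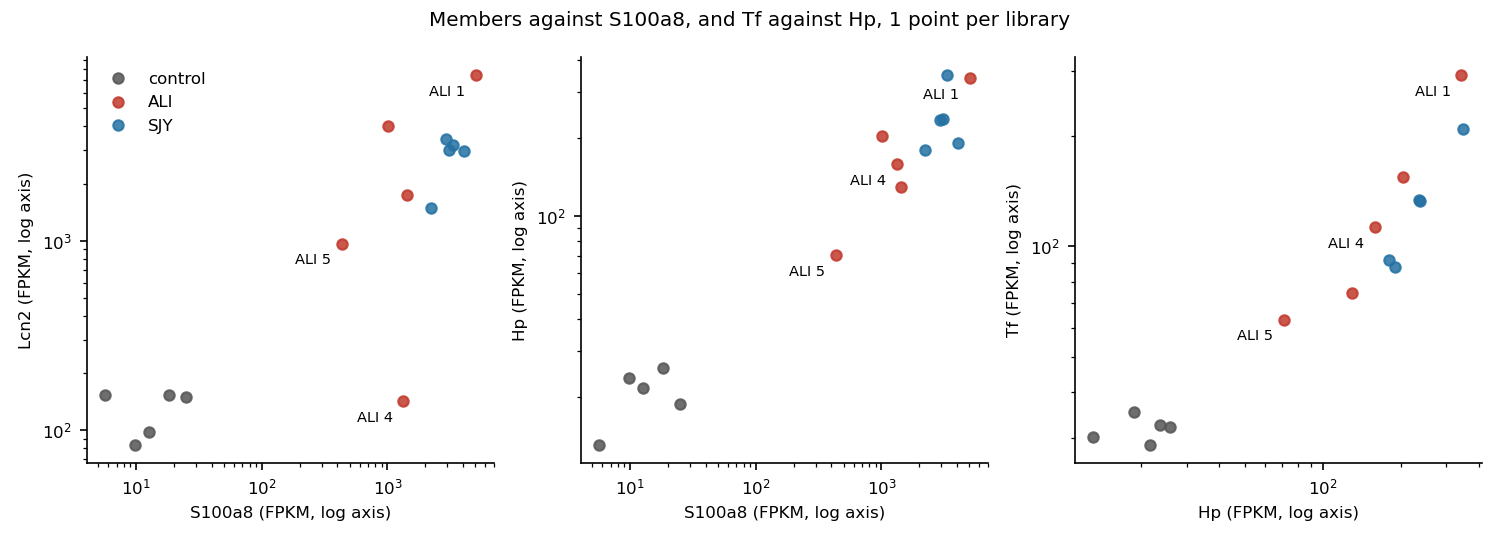
Lcn2 against S100a8, Hp against S100a8 and Tf against Hp, in FPKM on log axes, with 1 point per library coloured by group. ALI 4 sits with the controls for Lcn2 (142 FPKM) but with the other ALI libraries for S100a8 and for Hp.

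Hp, Tf, Cp and Hamp are best known as products of hepatocytes, and of the hepatocyte markers some were at or near 0 in these lungs. Albumin (Alb) was at most 0.0379 FPKM among the controls, 1.01 among the ALI libraries and 0.142 among the SJY libraries, Apob did not exceed 0.0421 in any library, and Apoa1 did not exceed 0.944. Over the 9 hepatocyte markers matched of 10 listed, the summed level was 10.7 to 24.8 FPKM for the controls, 17.6 to 22.3 for ALI and 15.9 to 21.4 for SJY. Most of that sum came from Serpina1, with group means of 12.0, 6.77 and 10.7 FPKM in control, ALI and SJY, and Hpx, with 4.23, 10.2 and 5.67 FPKM, of which Hpx was called higher in ALI. The part of such markers in the member values was not tested. The highest values of Alb, Ttr (0.318 FPKM) and Hamp were all in ALI 1, with Ttr almost as high in SJY 3 (0.313 FPKM). In ALI 1, Apob, at 0, and Apoa1, at 0.0836 FPKM, were the lowest of the ALI group. Fga was at 0.0818 FPKM in ALI 1 and highest in ALI 4, at 0.76 FPKM.

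For Lcn2, Hp, Slc11a1 and Tfrc, the genes whose log2(FPKM + 1) followed the member most closely over the 15 libraries were found by Pearson's r among all genes tested. Tf and Cp were not covered by this search. They describe these libraries, which share the step from control to LPS, and no test is attached. For Lcn2 they were Eif4e2 (r = 0.965), H2az1 (0.962) and Batf (0.945), with r of 0.890, 0.891 and 0.902 over the 10 LPS libraries alone. For Hp they were Mmp8 (r = 0.987), S100a9 (0.985) and Pram1 (0.985), with 0.922, 0.883 and 0.923 over the LPS libraries. Slc11a1 was followed by Fyb1 (r = 0.980), Cd14 (0.970) and Hps5 (0.970), and Tfrc by Ly75 (0.916), Idh1 (0.870) and Traf3 (0.852). For the last of these members the r over the 10 LPS libraries was 0.964 with Ly75, 0.868 with Idh1 and 0.924 with Traf3. Slc40a1, at 0 throughout, has no such genes.

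The other genes of iron metabolism were taken from 9 lists, and 62 of the 73 genes on them that are not members were tested. In ALI against control, 9 of these were called higher (14.5%, against 8.02% of all genes) and 8 lower (12.9%, against 9.56%), with a median difference of 0.042. The 9 include Steap1, which passed the filter through LPS libraries alone, so its call is no support for that count. The count of 17 depended on single libraries: it was 9 without control 6, 9 without control 7, 9 without control 8 and 11 without ALI 2. With only ALI and control in the fit the count was 10.

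The uptake list, which includes Tf, Tfrc and Slc11a1, had 7 of 11 tested genes called higher and 1 lower, against 8.02% and 9.56% of all genes. Steap4, a metalloreductase of inflamed tissue that reduces ferric iron, was at 3.40 ± 2.44 FPKM in control and 36.9 ± 17.6 in ALI (SD, n = 5 each), a difference of 3.13 (limma adjusted p 2.7e-05). Slc39a14 (ZIP14), an importer of iron not bound to transferrin, differed by 1.95 (adjusted p 0.000804), from 3.13 ± 0.368 to 16.2 ± 7.57 FPKM. The endosomal transporter Slc11a2 (DMT1) differed by 0.93 (adjusted p 0.00104), the importer Slc39a8 (ZIP8) by 0.64 (adjusted p 0.0155) and the reductase Steap1 by 1.12 (adjusted p 0.0263). Steap1 had no control library at 1 FPKM and passed the filter through LPS libraries alone, so its call is no support for the count, which is 6 without it. Cybrd1, a ferric reductase of the cell surface, was lower, at -1.15 (adjusted p 0.0332). The call of Steap1 was lost without control 6, 7 or 8, and without any of 5 other libraries it no longer met the filter. Cybrd1 was at -0.73 without ALI 1, and its call was lost without control 5, 6, 7 or 8 or without ALI 2 or 3.

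The haem list, which includes Hp, had 4 of 11 tested genes called higher and 1 lower, with the same shares of all genes. Cd163, the macrophage receptor for the haptoglobin-haemoglobin complex, was at 1.49 ± 0.322 FPKM in control and 6.24 ± 1.23 in ALI (SD, n = 5 each), a difference of 1.54 (limma adjusted p 0.00221). Hmox1, the enzyme that opens haem and frees its iron, differed by 1.23 (adjusted p 0.0417), with 353 FPKM in ALI 1 and a control mean of 35.9, and was at 0.72 without ALI 1. Hpx, the haem carrier hemopexin, differed by 1.01 (adjusted p 0.0388), and the haem transporter Flvcr2 by -1.11 (adjusted p 0.0151). The call of Hmox1 was lost without any 1 of the 5 controls, without ALI 2 or without SJY 3, 4, 5 or 6, and that of Hpx without control 6, 7 or 8 or ALI 1, 2 or 4.

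On the siderophore and lactoferrin list, Lcn2 was the only gene called higher in ALI among 4 tested, and 2 were lower, against 8.02% and 9.56% of all genes. Lactoferrin (Ltf), also on this list, did not pass the filter and was at most 0.0851 FPKM in any library. Bdh2, an enzyme described in making a mammalian siderophore that Lcn2 binds, was at 4.23 ± 0.732 FPKM in control and 1.46 ± 0.636 in ALI (SD, n = 5 each), a difference of -1.13 (limma adjusted p 0.00369). Lrp2 (megalin), an endocytic receptor for Lcn2, differed by -1.18 (adjusted p 0.0482), and by -0.78 without ALI 1. Its call was lost when any of 11 single libraries was left out, among them control 5, 6, 7 and 8 and ALI 1, 2 and 3. Slc22a17, another receptor described for Lcn2, was not called.

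Among hepcidin and its regulators, none of 11 tested genes was called higher in ALI and 3 were called lower, against 8.02% and 9.56% of all genes. In the same comparison all 7 alveolar type I markers were called lower, with a median of -1.27, and their part in these values was not tested. Neo1, a co-receptor in the BMP pathway that drives hepcidin, differed by -1.09 (limma adjusted p 0.0215), the BMP receptor Bmpr2 by -0.77 (adjusted p 0.0426) and the signal transducer Smad5 by -0.53 (adjusted p 0.0297). The call of Bmpr2 was lost without any of the same 11 libraries as for Lrp2, that of Neo1 without control 5, 6, 7 or 8, and that of Smad5 without control 6, 7 or 8 or ALI 2 or 3. Fbxl5, the iron-sensing subunit of the ligase that degrades iron regulatory protein 2, was at 40.0 ± 4.14 FPKM in control and 80.8 ± 25.8 in ALI (SD, n = 5 each), a difference of 0.95 (adjusted p 0.00191). The iron regulatory proteins themselves (Aco1 and Ireb2) were not called. Of the ferroxidases and exporters, Cp was called among 3 tested genes. On the list of storage, chaperones and ferritin turnover, none of 3 tested genes was called by limma, with 1 at an unadjusted p under 0.05. Of these 3 only Ftl1, with the low values given above, codes for a ferritin chain. Iron storage cannot be read from this count. Of 9 genes of haem synthesis, only Alas1, the first enzyme of the pathway outside the red cell lineage, was called, at -1.10 (adjusted p 0.00384). Over all genes tested, 17.6% were called in either direction in this comparison, the share to set beside these counts.

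**Figure D4:**
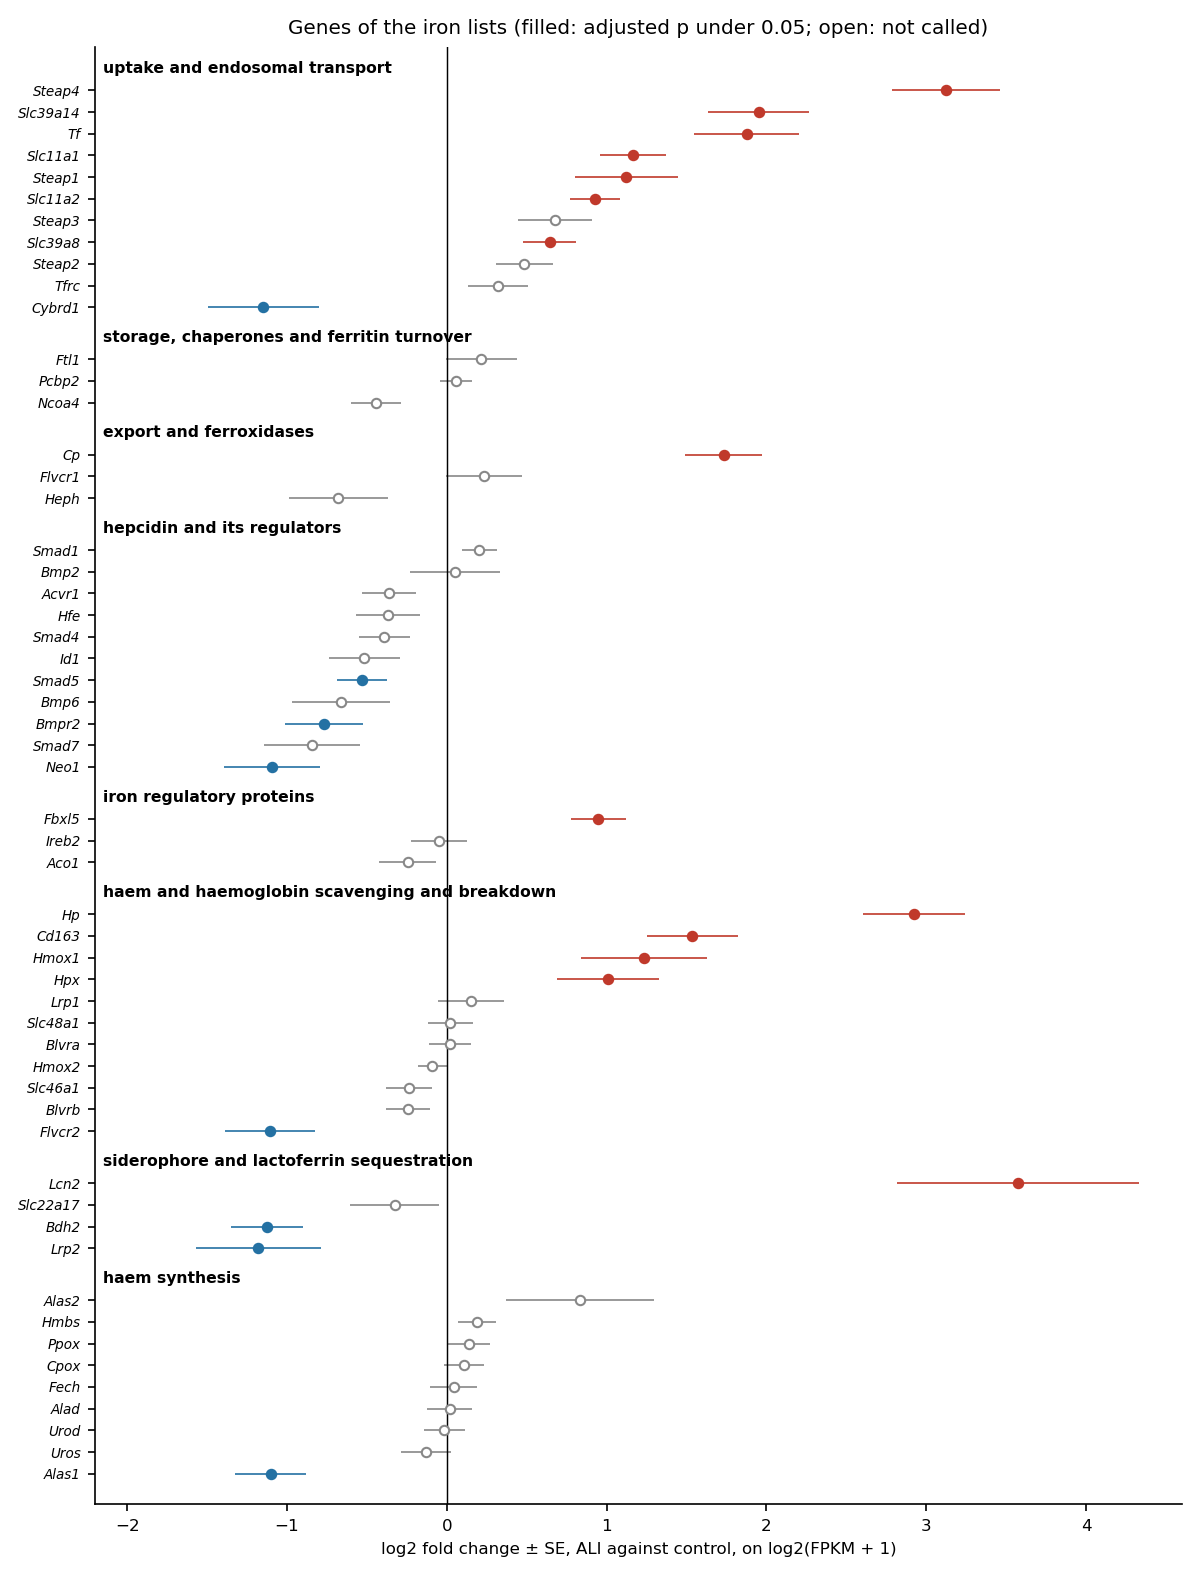
Difference between ALI and control on log2(FPKM + 1) for 55 tested genes on 8 of the iron lists, members included, with limma's SE, grouped by role and sorted within each list. Filled points are called (red higher, blue lower) and open points are not; the called genes of the uptake and haem lists lie mostly to the right of 0, and those of the hepcidin list lie to the left.

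In SJY against ALI, none of these 62 genes was called by limma, with 17 at an unadjusted p under 0.05. In SJY against control, 14 were called higher (22.6%, against 14.6% of all genes) and 11 lower (17.7%, against 18.1%), with a median difference of 0.098. The uptake list again had 7 of 11 genes higher and 1 lower, and the hepcidin list had 0 higher and 5 lower of 11. Fbxl5 had a mean of 126 ± 14.4 FPKM in SJY (SD, n = 5) and differed from control by 1.63 (limma adjusted p 8.78e-06).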

How the data were processed

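The 15 rat lung libraries were grouped by their labels. Per the labels' protocols, TRIzol was used for extraction and the NEBNext Ultra kit for library preparation. The build Rnor_6.0 and the tools StringTie, HISAT2 and cutadapt are named in the submitters' processing notes. Versions, annotation and strand setting are not given in the sources used here. Per the file headers, the authors deposited FPKM, with no further scaling stated. Read depth is unknown, so no counting error is given and a listed 0 may be a failed estimate. Symbols come from the table, and promoters from RefSeq GRCr8, matched by symbol for 6 of 9 members.

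FPKM became log2(FPKM + 1), which understates differences of low genes. Genes with at least 1 FPKM in at least 5 libraries (13457) were fitted with limma 3.58.1 in R 4.3.3, all groups together, with trended robust eBayes and Benjamini-Hochberg adjustment at 0.05. Hamp was tested by exact permutation. The fit was tested on simulated data. All members were named, with every called gene of the iron lists in ALI against control and the 3 genes most correlated with each of Lcn2, Hp, Slc11a1 and Tfrc (Slc40a1, also in that rule, was at 0). The members and lists were chosen with earlier results of these data known. Of the iron lists, 1 enters the totals and is not reported here by itself.

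Alternatives were median-of-ratios scaling, a pseudocount of 0.1, no filter, a mean of at least 5 FPKM, eBayes without trend or robust settings, only the groups compared, the replicate number as a block and leaving out each library. Median-of-ratios scaling moved the median of all genes from -0.12 to 0.0014 in ALI against control and from -0.11 to -0.0033 in SJY against control. It turned the calls from 1079 higher and 1287 lower to 1473 and 1254 in the first, and from 1959 and 2431 to 2383 and 2286 in the second.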

Additional observations from a re-analysis of the deposited data

Results flagged for a closer look

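Among 21 combinations of a member and a group, 4 held a library whose distance to its nearest neighbour took up an unusually large part of the group's range, where chance gives about 5% of groups. In ALI, Cp was lowest in ALI 1, at 51.8 FPKM against 136 in the nearest library, a gap of 0.833 of the range. In the same group Hamp was highest in ALI 1, at 47.5 FPKM against 2.52, a gap of 0.947 of the range. Both fall in the library with 37.7% mitochondrial signal, whose part in these values was not tested. In SJY, Lcn2 was lowest in SJY 5, at 1480.4 FPKM against 2981, a gap of 0.767, and Tfrc was lowest in SJY 1, at 6.14 FPKM against 10.6, a gap of 0.715. Lcn2 in ALI 4, at 142 FPKM, was not set apart by this measure.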

How the results depend on the processing

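Cp, Hp and Slc11a1 kept their calls against control in both LPS groups under all alternatives run, and Lcn2 and Tf did under all but the replicate block. In ALI against control, the number of genes called, 2366, was 1332 with only the groups compared in the fit, and 1538 to 2890 when 1 library was left out. In SJY against ALI, the 1 gene called became 0 with median-of-ratios scaling, a pseudocount of 0.1, no filter, no trend or robust settings, and only the groups compared, and 0 to 181 when 1 library was left out (5 without control 5). In SJY against control it was 3329 to 5953 when 1 library was left out, against 4390. Members called ranged from 0 to 1 in SJY against ALI when 1 library was left out. Some uncalled differences changed sign. For Hamp, SJY against control became 0.14 with a pseudocount of 0.1 and was -0.29 to 0.10 when 1 library was left out. For Tf, SJY against ALI was -0.16 to 0.38 when 1 library was left out (-0.10 without ALI 2, -0.12 without SJY 6). For Tfrc, SJY against control became 0.066 with median-of-ratios scaling and was -0.11 to 0.12 when 1 library was left out (0.041 without control 8). Hamp in SJY against ALI was -1.80 without ALI 4, with an exact permutation p of 0.00794, and -0.40 without ALI 1, with p = 0.31 by the same test. Of the other iron genes in ALI against control, Bmpr2, Hmox1, Hpx and Lrp2 lost their calls with no filter and with only the groups compared, Lrp2 also with a pseudocount of 0.1, Cybrd1, Neo1 and Steap1 with only the groups compared, and Smad5 with median-of-ratios scaling (adjusted p 0.0583). The causes were not tested.

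Whether the numbers in the titles pair the libraries is not known. Over 9 pairs with the same number the median correlation of deviations was 0.0562 (-0.389 to 0.302). Over 66 pairs with different numbers it was 0.00722 (-0.333 to 0.446), and these overlapping ranges cannot decide the question. Control and ALI share only the numbers 4 and 5, and ALI 4 is the library with 142 FPKM of Lcn2. With the replicate number as a block, 313 genes and 3 members were called in ALI against control and 1142 genes in SJY against control. Under the block Lcn2 was at 2.44 in ALI (adjusted p 0.259) and 3.43 in SJY (adjusted p 0.0655), Tf in ALI at 1.94 (adjusted p 0.082), Tf in SJY against ALI at -0.17 and Tfrc in SJY against control at 0.18. Of the other iron genes, 2 and 8 were called, against 17 and 25.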
